A study of Mus musculus with 11 samples.

Results

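The question addressed here is whether losing DNMT3C and NRF1 together changed the RNA of genes in the postnatal testis by something other than the sum of the 2 single losses. The members are the 33188 gene rows of 34276 features counted in the same 11 libraries, the other 1088 being transposable element (TE) subfamilies, and 21690 genes had enough counts to be tested. For each gene, the change from Nrf1 cKO to dKO was set against the change from wild type (WT) to Dnmt3C KO, in 1 model over all libraries. The difference between those changes, on the log2 scale, is called the interaction. A value of 0 means that the fold changes of both single losses multiply in the dKO, a value above 0 means that the dKO held more RNA than that, and a value below 0 that it held less.

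Poly-A RNA was sequenced from whole testes of mice on a C57Bl6/J background at postnatal day 5 (P5), as 2 WT libraries and 3 libraries each of Dnmt3C KO (Dnmt3C KO/KO), Nrf1 cKO and dKO. Nrf1 cKO mice carried a floxed and a deleted Nrf1 allele with a Cre driven by Ddx4 (Vasa), so that NRF1 was to be lost in germ cells while the somatic cells were to keep an uncut floxed allele. The dKO combined this with Dnmt3C KO/KO. Somatic cells of Nrf1 cKO and dKO thus also carried a deleted Nrf1 allele, and its part in the values of somatic genes was not tested. The labels give Nrf1 KO/KO for these libraries and call the samples germ cells and somatic cells. Both kinds of marker were present: summed over the genes tested, Sertoli cell markers were between 4930 and 9130 CPM (counts scaled to library size) and germ cell markers between 298 and 1050 CPM over the 11 libraries. In RNA of a whole organ, fewer cells of a type and less RNA per cell cannot be told apart. Controls were littermates where the protocol gives it, but nothing ties 1 library to a litter, and the p-values measure the spread between these libraries.

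DNMT3C is a rodent DNA methyltransferase that methylates the promoters of young retrotransposons in fetal male germ cells. NRF1 is a transcription factor that binds GC-rich palindromes at many promoters, including those of genes for mitochondria and for the cell cycle, and its binding is blocked when the CpG sites in its motif are methylated. The pair is therefore studied as a writer of a mark and a factor that the mark keeps away.

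Total counts per library were between 26063590 and 39365841. Library WT 2 stood apart from the rest: 12 genes in it exceeded 5 times the highest value of the other 10 libraries at a level of at least 1 CPM, while no other library had more than 6 such genes. Slc4a1, the anion exchanger of red blood cells, was at 31.1 CPM in WT 2 and between 0.309 and 1.31 CPM elsewhere. H2-Eb1, an MHC class II chain of antigen-presenting cells, was at 57.8 CPM in WT 2 and between 3.71 and 5.88 CPM elsewhere, and was picked here after its values were seen. Since WT has only 2 libraries, each of them carries much of the weight of every interaction.

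Neither targeted gene was below WT in every library of its own knockout. Nrf1 was at 57 and 58 CPM in WT, at 45, 55.6 and 50.3 CPM in Dnmt3C KO libraries, at 56.1, 52.2 and 57.9 CPM in Nrf1 cKO libraries, and at 56.8, 60.8 and 60.8 CPM in dKO. The Nrf1 cKO values overlapped those of WT, while the Dnmt3C KO libraries lay below every WT and dKO library. Markers of somatic cells were abundant in the same libraries. In these cells the Cre was not meant to act, but in Nrf1 cKO and dKO they carried a deleted Nrf1 allele. Their part in the level of Nrf1 was not tested. Dnmt3c was low everywhere. Its WT libraries were at 4.16 and 4.87 CPM, those of Dnmt3C KO at 3.02, 3.84 and 4.51 CPM, those of Nrf1 cKO at 3.86, 4.87 and 4.03 CPM, and those of dKO at 4.28, 4.94 and 3.55 CPM. The groups overlapped, and the counts cover the whole gene, so reads outside a deleted part would still be counted. The interaction was 0.30 ± 0.17 (SE) for Nrf1 and 0.25 ± 0.35 (SE) for Dnmt3c, with unadjusted p = 0.0956 and 0.488 in edgeR's quasi-likelihood test. The value for Dnmt3c was 0.10 without Dnmt3C KO replicate 1 and 0.40 without Dnmt3C KO replicate 3. After scaling to equal germ cell markers, which moved the median of all genes from -0.03 to -0.44, they were -0.11 and -0.27, both above that median.

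No gene departed from the sum of the single losses past the threshold. Of the 21690 genes, 0 (0%) were called at an adjusted p under 0.01 by edgeR's quasi-likelihood test with Benjamini-Hochberg adjustment, and 0 at 0.05, and the smallest adjusted p of any gene was 0.895. The DESeq2 Wald test called 0 genes at 0.01 and 1 at 0.05, the pseudogene Amd-ps4. At an unadjusted p under 0.05 there were 995 genes, 4.59% of those tested, where p-values spread evenly between 0 and 1 would give 5%. The p-values were close to such a spread, with 9.68% of genes at a p up to 0.1, so the genes described below are no more numerous than that and are given as a description. They were 574 genes above 0 (2.65%) and 421 below 0 (1.94%), so 57.7% of them lay above 0. With libraries scaled to equal germ cell markers, which lowered the median of all genes to -0.44, 11 genes were called, the count at an unadjusted p under 0.05 was 73 above and 321 below, and 18.5% lay above 0.

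These counts depended on single libraries. Without either WT library, WT had no spread of its own and the spread came from the other genotypes only, so no counts are given for those fits. The genes below 0 were 421 with all libraries, 652 without Nrf1 cKO replicate 3, 642 without dKO replicate 1 and 257 without Nrf1 cKO replicate 2. In both directions together, 4.59% of the genes tested had an unadjusted p under 0.05 with all libraries. The share was 6.63% without Nrf1 cKO replicate 3, 6.51% without Nrf1 cKO replicate 1, 5.32% without dKO replicate 1 and 2.87% without Nrf1 cKO replicate 2. The genes above 0 were 574 with all libraries and 363 without Nrf1 cKO replicate 2.

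The precision set what could be seen. The standard error of an interaction had a median of 0.36 over all genes, with quartiles of 0.23 and 0.71, and a median of 0.23 over the 10871 genes with a mean of at least 10 CPM. The 95% interval of the interaction lay within a 2-fold departure in either direction for 10229 genes (47.2%), and for 9375 of the 10871 genes at 10 CPM or more (86.2%). For the genes with such an interval, a departure of more than 2-fold lay outside the interval. For the other genes the interval reached past 2-fold, so that a departure of that size lay within it.

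**Figure D1:**
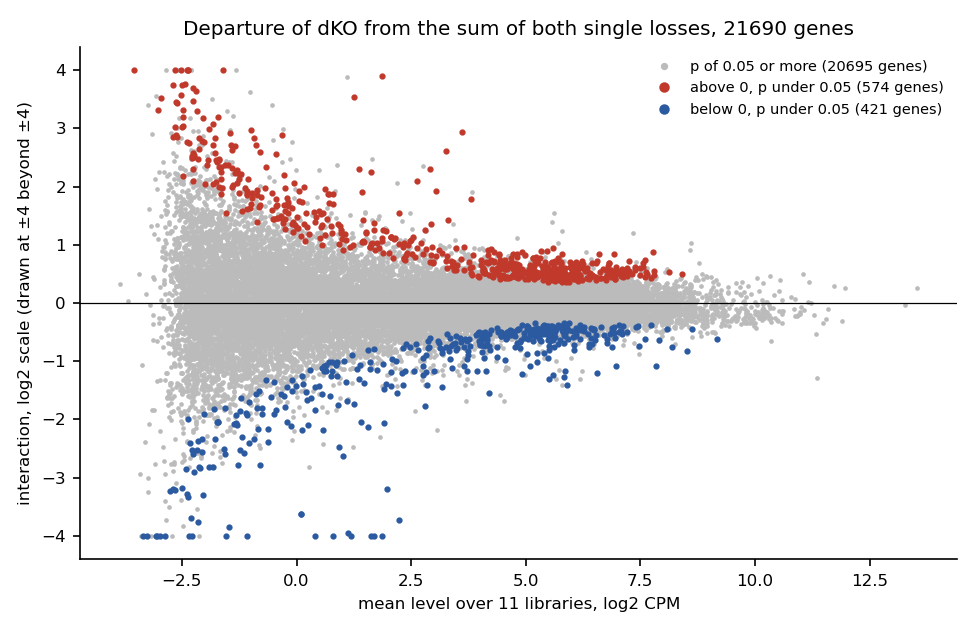
Interaction of each of the 21690 genes (y axis, log2 scale, points beyond 4 drawn at 4) against its mean level over the 11 libraries (x axis, log2 CPM). Red and blue points are the 574 genes above and the 421 genes below 0 at an unadjusted p under 0.05; none of them passed adjustment, and the spread narrows as the level increases.

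The contrasts behind the interaction held few calls, and how many depended on the test. In the same fit over all libraries, edgeR's quasi-likelihood test called 0 genes at an adjusted p under 0.01 in each of the 5 contrasts between genotypes that were fitted. At an unadjusted p under 0.05 the count was 1694 (7.81%) for Nrf1 cKO against WT, of which 764 were higher and 930 lower in the mutant. It was 1057 (4.87%) for dKO against Dnmt3C KO, 765 (3.53%) for dKO against Nrf1 cKO, 751 (3.46%) for Dnmt3C KO against WT and 383 (1.77%) for dKO against WT. The contrast of dKO with WT, which spans both losses, thus had the fewest genes at that threshold. The DESeq2 Wald test over all libraries, added after seeing the data, called 21 genes (0.0633%) at an adjusted p under 0.01 for Nrf1 cKO against WT, 2 higher and 19 lower in the mutant. It called 7 genes (0.0211%) for dKO against Nrf1 cKO, 3 (0.00904%) for Dnmt3C KO against WT, 1 (0.00301%) for dKO against Dnmt3C KO and 0 (0%) for dKO against WT, where 488 genes had an unadjusted p under 0.05. With only the libraries of the 2 genotypes compared, the same test called 25 (0.0785%), 3 (0.00934%), 17 (0.0528%), 17 (0.0525%) and 1 (0.00311%) genes in that order. These shares are of the genes to which DESeq2 gave a p. Of TE subfamilies in Dnmt3C KO against WT, edgeR's test called 0, and DESeq2 called 2 over all libraries and 8 within the pair, all higher in the mutant. These contrasts share libraries with each other and with the interaction.

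Genes past the unadjusted threshold had 1 common form. Of the 574 above 0, 500 had a mean level in both single mutants below that in WT and in dKO, and WT had the highest mean in 468. Their median change was -0.38 on the log2 scale in Dnmt3C KO against WT, -0.48 in Nrf1 cKO against WT and -0.13 in dKO against WT. Of the 421 below 0, 368 had both single mutants above WT and dKO, with WT lowest in 306. Their medians were 0.43, 0.46 and 0.12 in the same order. The choice by the interaction favours this form, and it is given as a description; among all genes tested, 3647 had both single mutants below the other genotypes and 3707 above.

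Zgrf1, Brca2, Cep295 and Hells led the 12 protein-coding genes of smallest p above 0. None passed adjustment (adjusted p = 0.895 for each in edgeR's test), and their unadjusted p-values were between 0.000341 and 0.00302. Zgrf1, a helicase of recombination repair (chr3:127553489-127618023, GRCm38), was at 38.6 and 44 CPM in WT, at 27.5, 25.6 and 32 CPM in Dnmt3C KO, at 24.2, 22.6 and 26.2 CPM in Nrf1 cKO, and at 29.5, 31.4 and 31.4 CPM in dKO. WT was above all mutants, and the dKO libraries overlapped those of Dnmt3C KO. Its interaction was 0.88 ± 0.18 (SE). The geometric mean in dKO was 30.8 CPM, where multiplying the fold changes of the single losses gives 16.7 CPM.

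Brca2, which acts in the repair of broken DNA by homologous recombination (chr5:150522630-150570329), was at 59.6 and 57.4 CPM in WT, at 46.3, 39.9 and 45.7 CPM in Dnmt3C KO, at 42.2, 30.6 and 41.9 CPM in Nrf1 cKO, and at 48.9, 64.1 and 52.5 CPM in dKO. Every library of the single mutants was below every library of WT and dKO. The interaction was 0.94 ± 0.22 (SE), with unadjusted p = 0.000868 in edgeR's test. The dKO mean was 55.2 CPM, against 23.7 CPM if the differences of the single losses from WT are added. That sum is not the expectation of the test, in which fold changes multiply.

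Hells encodes LSH, a chromatin remodeller needed for DNA methylation of repeats (chr19:38930915-38971051). It was at 103 and 133 CPM in WT, at 120, 98.7 and 109 CPM in Dnmt3C KO, at 69.9, 55.1 and 64 CPM in Nrf1 cKO, and at 107, 106 and 98.1 CPM in dKO. Here only the Nrf1 cKO libraries stood below the rest, and the dKO libraries overlapped those of Dnmt3C KO. The interaction was 0.84 ± 0.20 (SE), made of a change of -0.11 from WT to Dnmt3C KO and of 0.72 from Nrf1 cKO to dKO.

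Cep295, a protein of the centriole, was at 86.7 and 91.1 CPM in WT, at 77.4, 71.2 and 73.3 CPM in Dnmt3C KO, at 61.5, 58.5 and 68 CPM in Nrf1 cKO, and at 82.6, 87 and 79.6 CPM in dKO. Both single mutants lay below WT and dKO without overlap, and the interaction was 0.67 ± 0.16 (SE). Knl1, a scaffold of the kinetochore, was at 44.5 and 54.1 CPM in WT, at 32.3, 41.1 and 39.4 CPM in Dnmt3C KO, at 37.9, 27.4 and 31.4 CPM in Nrf1 cKO, and at 40.3, 49 and 47.6 CPM in dKO, with an interaction of 0.89 ± 0.22 (SE). One dKO library fell within the range of Dnmt3C KO.

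The other leading genes above 0 were Atad5, which unloads the replication clamp PCNA (0.79 ± 0.20, SE), Haus6, a subunit of the augmin complex of the spindle (0.70 ± 0.18, SE), the Argonaute gene Ago3 (0.82 ± 0.20, SE), the actin-binding Ccdc88a (0.70 ± 0.17, SE) and Ulbp1, a ligand of an activating receptor of natural killer cells (0.77 ± 0.20, SE). A pair of low genes had another form. Papolb, a poly(A) polymerase of the testis, was at 1.54 and 1.47 CPM in WT, at 1.67, 1.4 and 1.33 CPM in Dnmt3C KO, at 0.85, 0.708 and 0.503 CPM in Nrf1 cKO, and at 2.17, 1.92 and 1.99 CPM in dKO. Its Nrf1 cKO libraries were below all others and its dKO libraries above all others, with an interaction of 1.58 ± 0.44 (SE). Gm6871 was likewise low in Nrf1 cKO, at 0.425, 0.245 and 0.426 CPM, against 1.94, 1.76 and 1.53 CPM in dKO, and its interaction was 1.87 ± 0.51 (SE).

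Gm1673, Crip2, Sigirr and Pcp4l1 led the 12 protein-coding genes of smallest p below 0, which had unadjusted p-values between 0.00156 and 0.00552 with the same adjusted p of 0.895 in edgeR's test. Gm1673, a short gene without a role given here, was at 9.34 and 11.2 CPM in WT, at 21.5, 21 and 16.6 CPM in Dnmt3C KO, at 12.6, 12.5 and 9.76 CPM in Nrf1 cKO, and at 12.1, 7.88 and 9.87 CPM in dKO. Only Dnmt3C KO stood above the other genotypes, and the interaction was -1.16 ± 0.29 (SE). Pcp4l1, a small calmodulin-regulator relative, was at 9.96 and 9.14 CPM in WT, at 13.9, 9.56 and 12.7 CPM in Dnmt3C KO, at 16.9, 20.4 and 14.2 CPM in Nrf1 cKO, and at 11.2, 8.96 and 10.7 CPM in dKO. Nrf1 cKO stood above the other genotypes here, and the interaction was -1.08 ± 0.29 (SE).

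Insl3, the peptide hormone of Leydig cells (chr8:71689214-71690575), was at 31.4 and 47 CPM in WT, at 73.9, 73.6 and 82.4 CPM in Dnmt3C KO, at 70.2, 86.2 and 45.8 CPM in Nrf1 cKO, and at 61.3, 32.1 and 55.4 CPM in dKO. Dnmt3C KO did not overlap WT or dKO, while Nrf1 cKO overlapped both, and the interaction was -1.41 ± 0.38 (SE). Jak3, a cytokine receptor kinase, had -1.27 ± 0.35 (SE), but the annotated Jak3 gene ends at the same base as Insl3 on the same strand (chr8:71676296-71690575), so reads of one can count for the other and its value is uncertain. Apoe, the apolipoprotein of macrophages and steroid-producing cells, was at 183 and 144 CPM in WT, at 263, 213 and 286 CPM in Dnmt3C KO, at 268, 334 and 232 CPM in Nrf1 cKO, and at 211, 148 and 255 CPM in dKO. WT was the lowest but for dKO 2, and the interaction was -1.08 ± 0.31 (SE). The dKO mean was 205 CPM, against 369 CPM if differences add, which again is not the expectation tested.

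The others below 0 were Sigirr, an inhibitory member of the interleukin-1 receptor family (-2.18 ± 0.56, SE), at no more than 2.18 CPM in any library, Crip2, a LIM domain protein (-1.17 ± 0.29, SE), Sumf2, a factor of sulfatase modification (-0.60 ± 0.17, SE), 2310011J03Rik (-0.59 ± 0.16, SE), Sdr39u1 (-0.75 ± 0.22, SE), the lysosomal nuclease gene Pld3 (-0.55 ± 0.17, SE) and Wfdc10, of a family of small secreted protease inhibitors (-1.24 ± 0.37, SE).

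**Figure D2:**
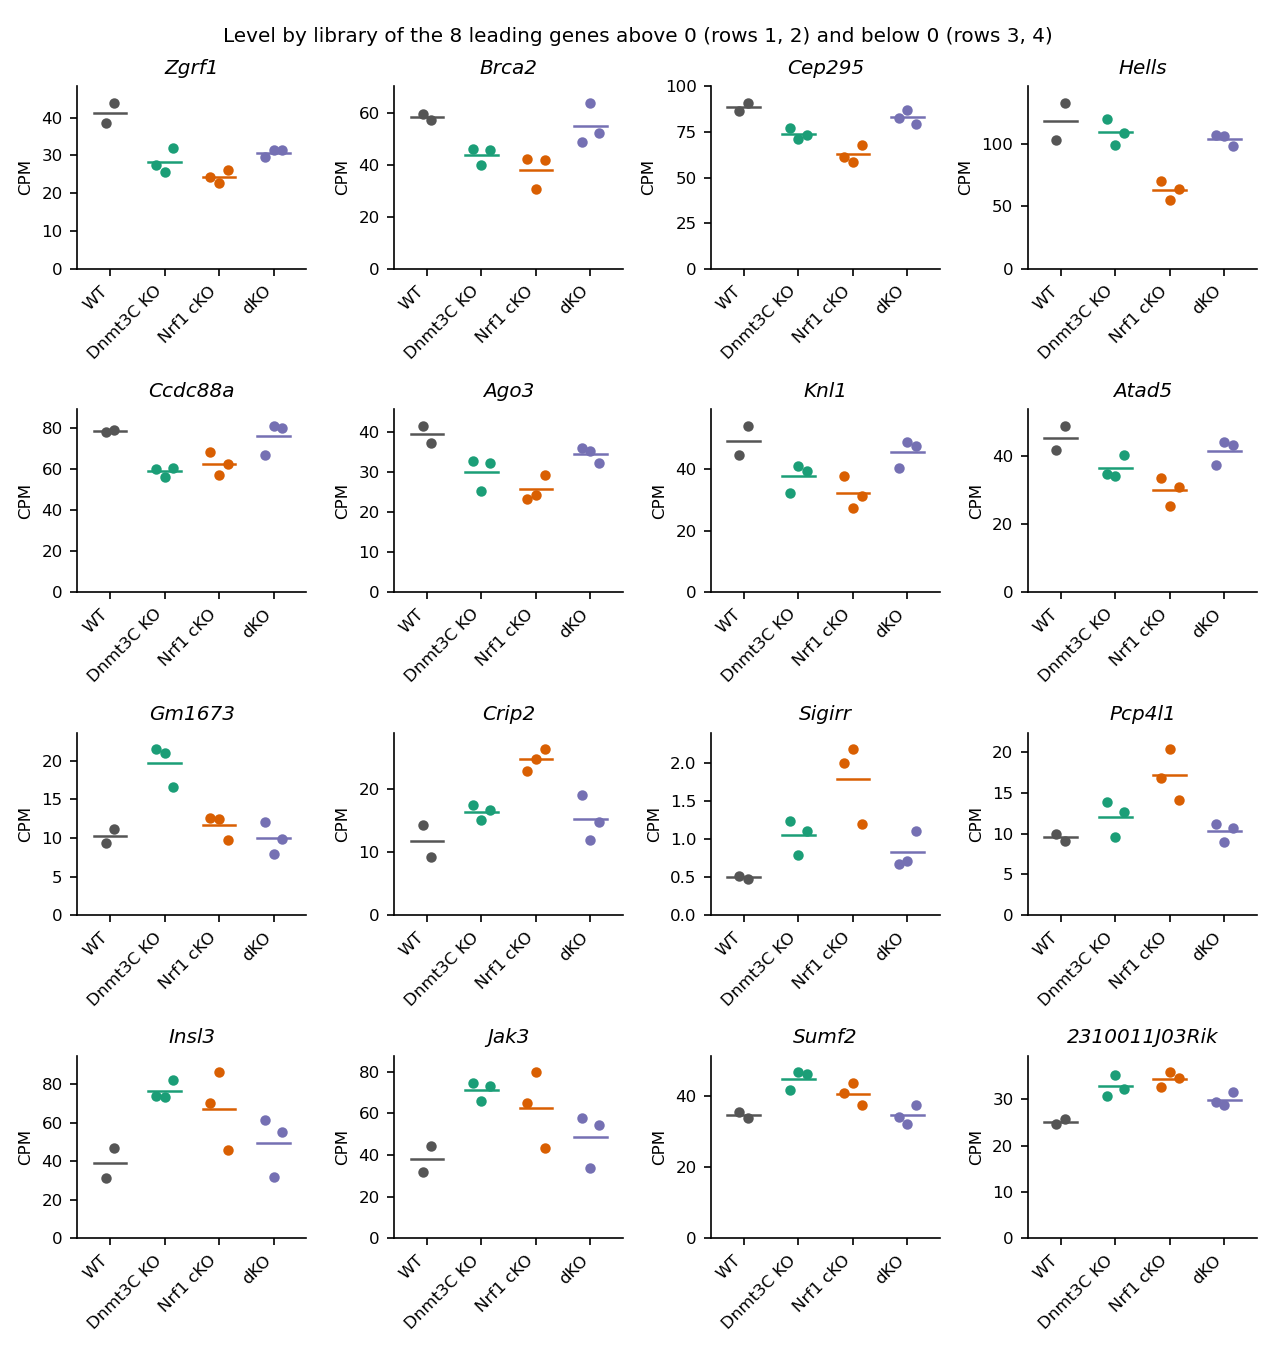
Level in CPM (y axis, from 0) of the 8 protein-coding genes with the smallest p above 0 (upper panels) and below 0 (lower panels), by genotype. Each point is 1 library and each bar the mean of its genotype; in Brca2 both single mutants lie below WT and dKO, and in Insl3 the Dnmt3C KO libraries, between 73.6 and 82.4 CPM, lie above all WT and dKO libraries.

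Leaving out any 1 library of the mutants kept all 12 genes above 0 and all 12 below 0 on their side at an unadjusted p under 0.05. Without either WT library, all of them also kept their side. The genes were chosen by this test on these libraries, so this describes the genes and is no support for them. With libraries scaled to equal germ cell markers, where the median of all genes was -0.44 in place of -0.03, the 12 leading genes above 0 had interactions between 0.26 and 1.54, and 0 of them had an unadjusted p under 0.05 in edgeR's test. Of the 12 below 0, 8 did; the common shift lowers the values of both sets.

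Transcript length and base composition moved with the interaction. The 422 protein-coding genes above 0 at an unadjusted p under 0.05 had a median transcript length of 5700 bases and 43.3% GC, the 348 below 0 had 1890 bases and 55.2% GC, and all 15928 protein-coding genes with a value had 3300 bases and 50% GC. Of the 12 leading genes above 0, 11 were longer than the median and all 12 had lower GC, while 11 of the 12 below 0 were shorter and all 12 had higher GC. By quartile of length, the median interaction was -0.19, -0.09, 0.0095 and 0.16 from the shortest to the longest genes, and 0.829%, 1.08%, 2.11% and 6.58% of the genes lay above 0 at that threshold. By quartile of GC, the median was 0.14, 0.02, -0.09 and -0.16. Libraries differed in the same property within a genotype: the longest quartile stood at 0.14 in WT 1 and -0.06 in WT 2, and at 0.13 in dKO 2 and -0.05 in dKO 1, as the median deviation from the mean over libraries on the log2 scale.

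An offset per library smoothed on length and then on GC, added after seeing the data, gave 411 genes above 0 and 377 below 0 at an unadjusted p under 0.05, and 0 calls at an adjusted p under 0.01 in edgeR's test. Of the first, 304 were among the 574 without the offset, and of the second 198 were among the 421. The interaction of Zgrf1 was 0.63 with the offset, that of Brca2 0.57, of Hells 0.49, of Knl1 0.45, of Crip2 -0.91 and of Insl3 -1.02. Over the 12 leading genes above 0 it was between 0.25 and 1.87, and over the 12 below 0 between -1.97 and -0.34. Of the 12 leading genes above 0, 9 kept an unadjusted p under 0.05, and of the 12 below 0, 11 did.

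**Figure D3:**
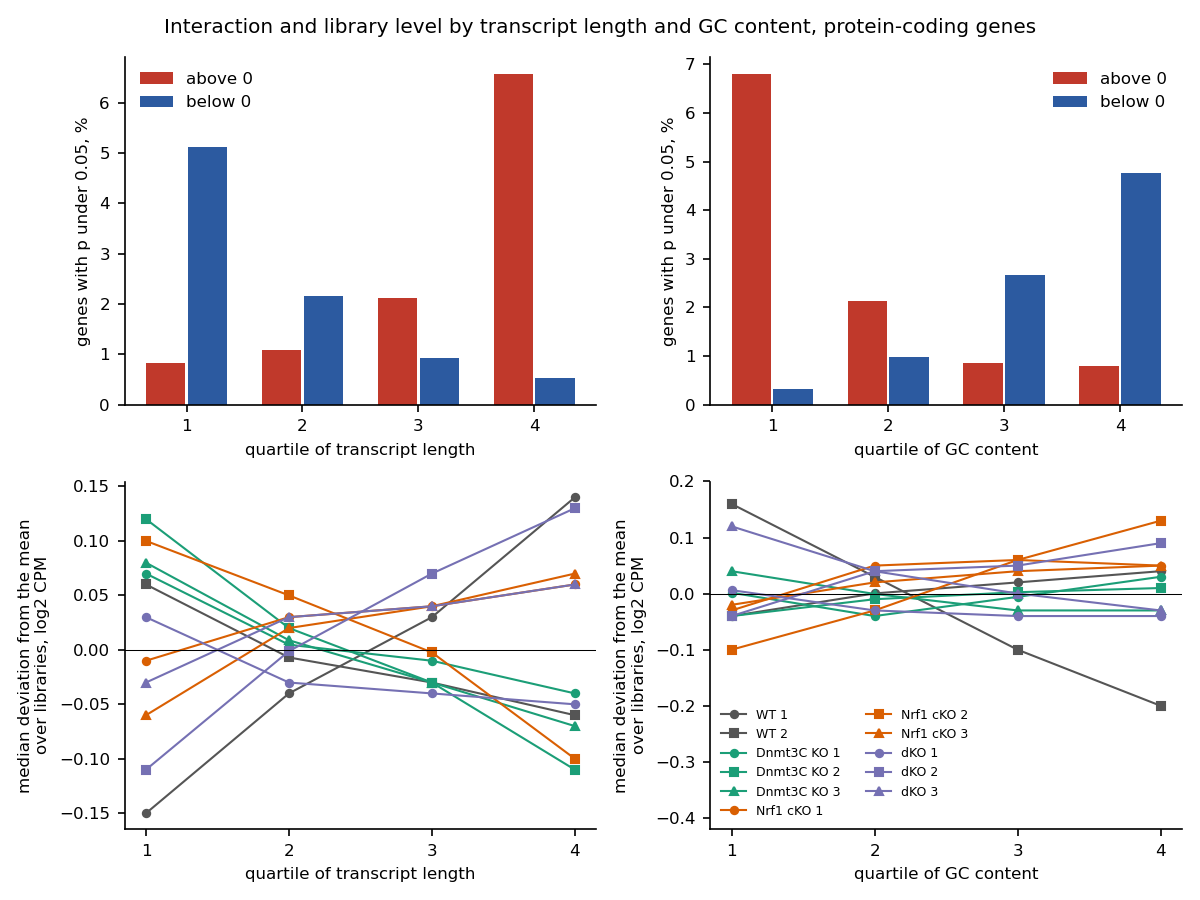
Upper panels: share of protein-coding genes (y axis, %) above 0 (red) and below 0 (blue) at an unadjusted p under 0.05, by quartile of transcript length (left) and GC content (right). Lower panels: median deviation of each library from the mean over libraries (y axis, log2 CPM) by the same quartiles; 6.58% of the longest genes were above 0 against 0.829% of the shortest, and the WT libraries lie on opposite sides of 0 in the longest quartile.

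Promoters were searched for the NRF1 motif because the factor is one of the 2 that were lost. The letters were CGCATGCG, which reads the same on both strands, and CGCACGCG on either strand (CGCGTGCG on the other), in windows from 250 bases before to 50 after the RefSeq start site on GRCm38.p6. A RefSeq promoter was found for 13490 of the 21690 genes, and 8.53% of these held at least 1 of them. The share was 7.4% among the genes above 0 at an unadjusted p under 0.05 (27 of 365) and 6.76% among those below 0 (20 of 296). Among the leading genes, 1 of 12 above 0 and 1 of 11 below 0 with a promoter held a match. The 3 promoters below show both genes with a match, Cep295 and Sumf2, and Hells, whose level was low in Nrf1 cKO and whose window held none. Matches are in capitals; the first begins 114 bases before the start site in Cep295 and 3 bases after it in Sumf2. The windows are chr9:15357739-15358038 on the minus strand, chr5:129846740-129847039 on the plus strand and chr19:38930740-38931039 on the plus strand.
Cep295: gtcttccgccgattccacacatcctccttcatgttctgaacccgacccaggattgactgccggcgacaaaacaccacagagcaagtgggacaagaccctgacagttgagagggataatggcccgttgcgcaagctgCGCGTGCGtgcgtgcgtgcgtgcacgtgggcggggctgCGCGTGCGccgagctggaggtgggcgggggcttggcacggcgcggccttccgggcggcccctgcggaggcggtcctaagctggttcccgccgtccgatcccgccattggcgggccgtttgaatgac
Sumf2: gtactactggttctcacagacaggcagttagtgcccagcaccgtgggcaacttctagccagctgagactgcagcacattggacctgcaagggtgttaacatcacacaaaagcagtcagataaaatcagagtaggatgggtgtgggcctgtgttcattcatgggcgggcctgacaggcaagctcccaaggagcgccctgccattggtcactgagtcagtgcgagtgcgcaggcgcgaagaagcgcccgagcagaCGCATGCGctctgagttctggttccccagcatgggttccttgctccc
Hells: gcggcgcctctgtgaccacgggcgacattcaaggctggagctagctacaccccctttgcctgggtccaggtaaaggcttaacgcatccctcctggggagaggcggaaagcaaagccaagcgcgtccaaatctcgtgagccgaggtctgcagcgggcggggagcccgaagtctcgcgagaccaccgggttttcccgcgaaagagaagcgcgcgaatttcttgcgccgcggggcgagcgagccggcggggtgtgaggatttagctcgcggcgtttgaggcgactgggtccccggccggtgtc

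Gene lists were described by the median interaction of their members beside that of all genes, -0.03, and by the number of members at an unadjusted p under 0.05, which 2.65% of all genes reached above 0 and 1.94% below 0. Of all genes tested, 47.4% had an interaction above 0 at any p, which is the value beside which the members above 0 are counted. Members of a list share the same libraries and can rise and fall together, so these counts are not of independent observations. From the mean log2 CPM of each library, the interaction was 0.43 ± 0.541 (SE) for germ cell markers and 0.46 ± 0.723 (SE) for piRNA genes. It was -0.31 ± 0.212 (SE) for oxidative phosphorylation, -0.47 ± 0.41 (SE) for Leydig markers, -0.89 ± 0.415 (SE) for endothelial markers and 0.24 ± 0.105 (SE) for H3K9 methylation. No member of any of the 23 lists passed adjustment (the smallest unadjusted p was 0.00115, with an adjusted p of 0.895, for Hells in edgeR's test). Scaling the libraries to equal germ cell markers moved the median of all genes from -0.03 to -0.44, so each median of a list is to be read against the value for all genes in the same scaling. Leaving out 1 library kept the median of all genes between -0.07 and -0.0096, but moved most medians of lists by more than 1.5 times, and the lowest and highest are given with each. The length and GC offset turned the median of Sertoli markers from -0.11 to 0.02. It also brought those of the DNA methylation machinery from 0.25 to 0.16, of imprinted genes from 0.14 to 0.03, of immediate early genes from -0.21 to -0.09, of p53 targets from -0.10 to -0.06 and of NRF1's coactivators from 0.04 to 0.01; its values for other lists that it moved by more than 1.5 times stand with those lists.

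Germ cell lists had medians above that of all genes. Many undifferentiated spermatogonia genes (such as Gfra1 and Zbtb16) and RNA binding genes (such as Ddx4 and Dazl) are also germ cell markers. The medians of these lists are therefore not separate observations. Of 34 germ cell markers tested, 28 were above 0, 1 passed an unadjusted p of 0.05 and the median was 0.36. That median was 0.16 without dKO replicate 1 and 0.74 without Nrf1 cKO replicate 1. Their mean log2 CPM was 3.65 and 3.20 for WT, 4.02, 3.40 and 3.46 for Dnmt3C KO, 2.82, 1.87 and 2.08 for Nrf1 cKO and 3.26, 3.22 and 2.2 for dKO. All Nrf1 cKO libraries were below WT and Dnmt3C KO, whereas 2 dKO libraries lay near WT and the third near Nrf1 cKO. The member past 0.05 was Usp26, a deubiquitinase gene of germ cells, at 32.1 and 22.5 CPM in WT, 35.2, 23.2 and 31.8 CPM in Dnmt3C KO, 10.1, 6.72 and 7.86 CPM in Nrf1 cKO, and 22.5, 15.8 and 11.7 CPM in dKO, with an interaction of 0.88 ± 0.37 (SE). Dazl, an RNA-binding protein of germ cells, had 0.87 ± 0.57 (SE), and its dKO libraries ranged from 33.3 to 120 CPM. Its interaction was 0.31 without dKO replicate 1 and 1.25 without Nrf1 cKO replicate 1. Ddx4, the helicase whose promoter drives the Cre, had 0.66 ± 0.45 (SE) and dKO libraries at 55.4, 52.4 and 27.2 CPM, with 1.11 without Nrf1 cKO replicate 1.

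In these lists the range over the dKO libraries, in mean log2 CPM, exceeded the median interaction. Of 31 genes of meiotic prophase, 23 were above 0 and 0 passed 0.05, with a median of 0.40, which was 0.12 without WT replicate 2, 0.78 without Nrf1 cKO replicate 1 and 0.26 with a filter at 1 CPM; Sycp1 and Sycp2, of the synaptonemal complex, had 0.94 ± 0.45 (SE) and 0.91 ± 0.43 (SE), and Sycp1 was at 0.54 without WT replicate 2. Of 22 piRNA pathway genes, 18 were above 0 and 0 passed, with a median of 0.22, which was -0.0059 without dKO replicate 1, -0.07 without Nrf1 cKO replicate 2 and 0.81 without Nrf1 cKO replicate 1. Of 23 genes of undifferentiated spermatogonia, 0 passed and the median was 0.30, which was 0.04 without WT replicate 1 and also without dKO replicate 2, and 0.72 without Nrf1 cKO replicate 1. Of 18 genes of germ cell RNA binding and differentiation, 1 passed, Ythdc2, a reader of RNA methylation needed to enter meiosis (0.61 ± 0.22, SE), and the median was 0.42, which was 0.10 without dKO replicate 1 and 0.73 without Dnmt3C KO replicate 1. In the scaling to equal germ cell markers these medians were -0.03 for germ cell markers, 0.04 for meiotic prophase, -0.08 for piRNA genes, -0.08 for undifferentiated spermatogonia and -0.01 for RNA binding, against -0.44 for all genes.

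Most genes of chromatin silencing were above 0, by small values. Of 22 genes of H3K9 methylation and heterochromatin, 18 were above 0, 4 passed an unadjusted p of 0.05 and 0 were below 0 at that threshold, with a median of 0.23. These were Tasor, of the HUSH silencing complex (0.71 ± 0.23, SE), Resf1, a partner of the H3K9 methyltransferase SETDB1 (0.60 ± 0.21, SE), Smchd1, which holds the inactive X chromosome silent (0.49 ± 0.19, SE), and the remodeller gene Atrx (0.49 ± 0.20, SE). Tasor was at 59.3 and 72.5 CPM in WT, at 46.2, 42.4 and 56.1 CPM in Dnmt3C KO, at 44.4, 44 and 60.2 CPM in Nrf1 cKO, and at 55.8, 56 and 66.4 CPM in dKO, so that the dKO libraries overlapped those of both single mutants. The intervals of 19 of the 22 genes lay within a 2-fold departure. The median of the list was 0.07 with the length and GC offset, and between 0.10 (without dKO replicate 2) and 0.24 (without Nrf1 cKO replicate 1) when 1 library was left out.

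Of 18 genes of the DNA methylation machinery, 15 were above 0 and 2 passed, Hells and Tet2, which oxidises methylated cytosine (0.51 ± 0.20, SE), with a median of 0.25 that was 0.05 without WT replicate 1, 0.07 without dKO replicate 2 and 0.34 without WT replicate 2. Of 28 genes of proliferation and replication, 26 were above 0 and 1 passed, the spindle checkpoint kinase gene Bub1 (0.40 ± 0.18, SE), with a median of 0.24 that was 0.08 without dKO replicate 2 and 0.35 without Nrf1 cKO replicate 1. In the germ cell scaling the medians were -0.15 for H3K9 methylation, -0.23 for DNA methylation and -0.18 for proliferation, against -0.44 for all genes.

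Genes of energy metabolism, many of them known targets of NRF1, differed by list: nuclear subunits were mostly below 0, and transcripts of the mitochondrial genome mostly above. Proteasome genes, a separate list that is not part of energy metabolism, were mostly below 0. Of 58 nuclear genes of oxidative phosphorylation, 1 was above 0 and 4 passed an unadjusted p of 0.05 below 0, with a median of -0.30, quartiles of -0.37 and -0.19, and intervals within a 2-fold departure in 52. Ndufa6, a subunit of complex I, was at 62.7 and 84.7 CPM in WT, at 98, 88.5 and 92.7 CPM in Dnmt3C KO, at 78.7, 93.2 and 82.1 CPM in Nrf1 cKO, and at 81.8, 62.1 and 77.8 CPM in dKO, with an interaction of -0.53 ± 0.22 (SE) that was -0.35 without WT replicate 1. Dnmt3C KO stood above WT and dKO, and Nrf1 cKO overlapped WT, Dnmt3C KO and dKO. The other members past 0.05 were Ndufs6 (-0.51 ± 0.20, SE), Ndufa2 (-0.55 ± 0.25, SE) and Atp5d, of the ATP synthase (-0.53 ± 0.22, SE). The list's mean log2 CPM was 6.57 in WT 1 and 6.92 in WT 2, and its median interaction was -0.13 without WT replicate 1, -0.50 without WT replicate 2 and -0.15 with the length and GC offset.

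Of 31 proteasome genes, 3 were above 0 and 0 passed, with a median of -0.17 and all 31 intervals within a 2-fold departure; the median was -0.04 without WT replicate 1, -0.39 without WT replicate 2 and -0.03 with the offset. NRF1's coactivators and mitochondrial transcription factors had a median of 0.04 over 21 genes, 0 of which passed, and between 0.01 and 0.11 with 1 library left out. Ppargc1a, the coactivator PGC-1alpha, had 0.68 ± 0.33 (SE). Of the 13 genes of the mitochondrial genome, 11 were above 0 and 0 passed the threshold, with a median of 0.26, which was -0.23 without WT replicate 2, 0.58 without WT replicate 1 and 0.12 with the offset. A match to the NRF1 motif stood in 25.5% of oxidative phosphorylation promoters (12 of 47), in 36.8% of those of the coactivators and mitochondrial factors (7 of 19) and in 20% of proteasome promoters (5 of 25), against 8.53% of all genes with a promoter. Such shares were not limited to these lists: a match stood in 22.2% of endothelial (2 of 9), 21.1% of imprinted (4 of 19), 18.8% of p53 target (3 of 16), 18.8% of piRNA pathway (3 of 16) and 15.4% of meiotic prophase promoters (4 of 26), and in 0 of the 28 promoters of germ cell markers.

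**Figure D4:**
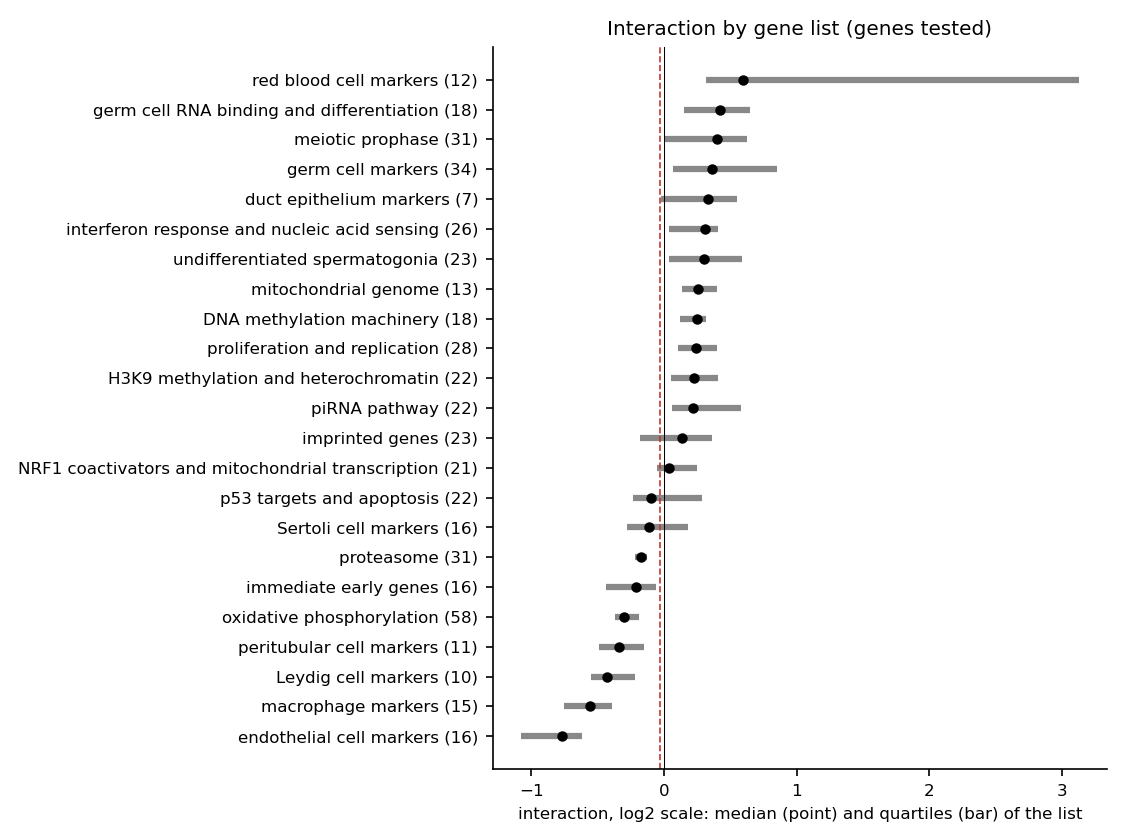
Median (point) and quartiles (bar) of the interaction (x axis, log2 scale) over the tested genes of each list, with the number tested in parentheses; the dashed line is the median of all genes, -0.03. Germ cell lists lie to its right and the endothelial, macrophage, Leydig and peritubular lists to its left: the lowest lower quartile of the germ cell lists is -0.001 (meiotic prophase), and the highest upper quartile of the other 4 is -0.15 (peritubular). The lists of germ cell markers, undifferentiated spermatogonia and germ cell RNA binding share members.

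Lists of the other testis cells were mostly below 0. All 16 endothelial markers were below 0, 3 of them past an unadjusted p of 0.05, with a median of -0.77. Robo4, a receptor of vessel walls, was at 10.5 and 10.3 CPM in WT, at 13.6, 11.2 and 14 CPM in Dnmt3C KO, at 19.2, 20.4 and 13.2 CPM in Nrf1 cKO, and at 13, 8.37 and 12.1 CPM in dKO, with an interaction of -0.97 ± 0.31 (SE). The other members past 0.05 were Eng (-0.69 ± 0.23, SE), a coreceptor of the TGF-beta family, and Vwf (-1.41 ± 0.63, SE, and -0.77 without Nrf1 cKO replicate 1), the von Willebrand factor. The mean log2 CPM of the list was 3.65 and 3.56 for WT, 3.89, 3.44 and 3.75 for Dnmt3C KO, 4.47, 4.37 and 3.80 for Nrf1 cKO and 3.81, 2.76 and 3.66 for dKO. Nrf1 cKO had the highest mean but overlapped Dnmt3C KO and dKO, and dKO 2 was the lowest library; the median of the list was -0.58 without dKO replicate 2 and -1.10 without dKO replicate 1.

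Of 15 macrophage markers, 2 were above 0 and 2 passed below 0, Cd68 (-0.78 ± 0.31, SE) and the complement gene C1qc (-0.98 ± 0.44, SE), with a median of -0.56 that was -0.39 without dKO replicate 2 and -0.97 without dKO replicate 3. All 10 Leydig markers were below 0, 1 of them past the threshold, Insl3, with a median of -0.43 that was -0.18 without Nrf1 cKO replicate 2 and -0.72 without Nrf1 cKO replicate 3. All 11 peritubular markers were below 0 with 0 past the threshold and a median of -0.34, which was -0.21 without Nrf1 cKO replicate 2 and -0.61 without WT replicate 1. Sertoli markers had a median of -0.11 over 16 genes with 0 past the threshold, with -0.25 without dKO replicate 2 and 0.22 without Nrf1 cKO replicate 3, in which they were highest. Duct epithelium markers had a median of 0.33 over 7 genes with 0 past the threshold, with -0.71 without WT replicate 1 and 1.49 without Dnmt3C KO replicate 2. It was 0.06 with the filter at 1 CPM, 0.06 with the replicate block and -0.60 in the germ cell scaling, where all genes had -0.44. In that scaling Sertoli markers were at -0.61, and they were at -0.05 with the replicate block.

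Of 12 red blood cell markers, 12 were above 0 and 2 passed, among them Slc4a1 (3.91 ± 1.27, SE, and -0.10 without WT replicate 2). The median was 0.60, which was -0.63 without WT replicate 2 and 1.84 without Nrf1 cKO replicate 2. Whether the abundance of these cells takes part in the interactions of other genes was not tested.

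**Figure D5:**
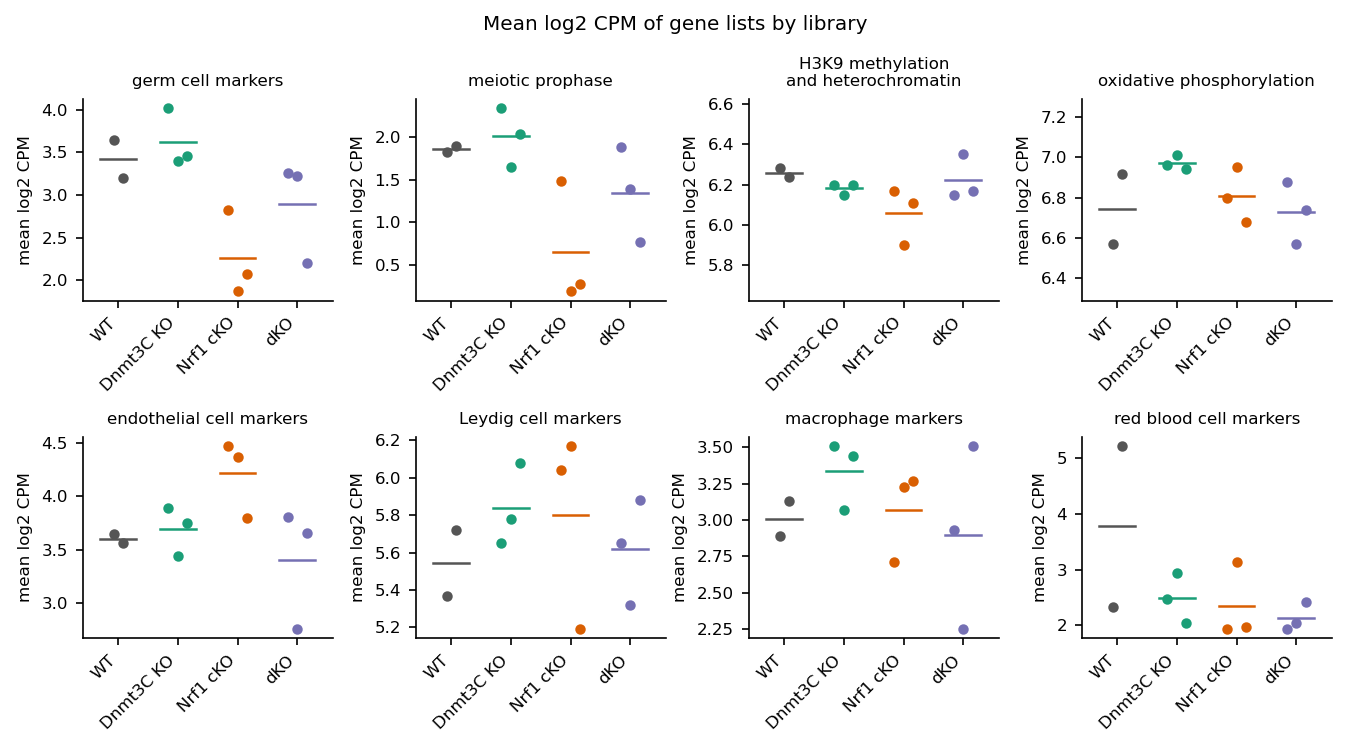
Mean log2 CPM (y axis, axis spans differ between panels) of the tested genes of 8 lists, by genotype. Each point is 1 library and each bar the mean of its genotype; germ cell markers lie between 1.87 and 2.82 in Nrf1 cKO and between 2.2 and 3.26 in dKO, and red blood cell markers reach 5.22 in WT 2.

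The medians of the remaining lists changed sign or came near 0 when 1 library was left out. Interferon response genes had a median of 0.31 over 26 genes with 2 past the threshold, Eif2ak2, the RNA-sensing kinase PKR (0.53 ± 0.23, SE, and 0.26 without WT replicate 2), and Mx1, an antiviral GTPase (2.26 ± 1.00, SE) at no more than 0.691 CPM in any library. That median was 0.68 without WT replicate 1 and -0.24 without WT replicate 2, where the mean log2 CPM of the list was 3.02 against 1.92 in WT 1. Of 23 imprinted genes, 2 passed above 0, the long noncoding RNAs Kcnq1ot1 (0.92 ± 0.38, SE) and Airn (0.65 ± 0.29, SE), and the median was 0.14, with -0.07 without Nrf1 cKO replicate 3 and 0.38 without Nrf1 cKO replicate 1. Of 22 p53 targets, 1 passed above 0, the p53 ubiquitin ligase gene Mdm2 (0.55 ± 0.18, SE), with a median of -0.10 that was -0.15 without WT replicate 1 and 0.03 without WT replicate 2. Of 16 immediate early genes, 1 passed below 0, Ccn1 (-0.55 ± 0.24, SE, and -0.33 without WT replicate 2), with a median of -0.21 that was -0.57 without WT replicate 1 and -0.02 without WT replicate 2.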

How the data were processed

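Poly-A RNA of whole P5 testes was sequenced, and the genotype in its title set the group of each library. The authors aligned reads with STAR 2.7.3a to GRCm38, counted them reverse-stranded on genes and TE subfamilies with TEtranscripts, which divides reads that map to many places, and left out libraries of poor RNA quality; tools and builds also stand in the submitters' processing notes (DESeq2 1.44.0, mm10). The deposited files used here hold raw counts in 6 tables, 1 per pair of genotypes, beside the authors' own fold changes and p-values, which were not used. A table of TPM for single TE copies was not used.

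The tables were joined by feature ID into 11 libraries; 0 values differed between tables. Total counts were between 26063590 and 39365841 per library, and counting error is the only error that depth covers, since reads carry no molecular identifiers. Every pair of replicates differed beyond sampling noise (chi-square over genes and TE subfamilies together of at least 17.8 per degree of freedom).

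edgeR 4.0.16 (R 4.3.3) was used with filterByExpr, TMM factors, estimateDisp and the quasi-likelihood F test on a model of 4 genotype means over genes and TE subfamilies together (22594 features, 904 of them TE subfamilies), with Benjamini-Hochberg adjustment over all of them. Standard errors are the absolute log2 change over the square root of F, and intervals are at 95%. TMM factors enter the CPM, and log2 CPM add a prior count of 1. Coordinates, biotypes, transcript length and GC (longest transcript) were read from GENCODE M21, an earlier release for GRCm38 than the authors used; 33076 of 33188 gene rows matched. The scripts were tested on simulated data. The members and the lists were chosen with earlier results of these data known. Named genes were Nrf1 and Dnmt3c, any called gene, the 12 protein-coding genes of smallest p in each direction with a mean of at least 1 CPM in a genotype, and up to 4 members of smallest p in each list, of which a part is given one by one. Alternatives were RLE factors, the DESeq2 1.42.0 Wald test, the other quasi-likelihood fit (added after seeing the data), no filter, a filter at 1 CPM, an adjusted p of 0.05, a replicate block, genes only, equal germ cell markers, a length and GC offset, and leaving out each library. The contrasts between genotypes were also fitted with DESeq2, a choice made after seeing the data.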

Additional observations from a re-analysis of the deposited data

How the results depend on the processing

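The count of 0 calls at an adjusted p under 0.01 held with RLE factors, the DESeq2 Wald test, both quasi-likelihood fits, no filter, the stricter filter, genes only, the length and GC offset, an adjusted p under 0.05 and the replicate block. It became 11 of 21690 genes with libraries scaled to equal germ cell markers. At an unadjusted p under 0.05, 73 genes were then above 0 and 321 below 0. The cause was not tested. Leaving out 1 library gave between 0 and 1 calls, between 363 and 796 genes above 0 and between 257 and 834 below 0. For the contrasts between genotypes, 0 calls by edgeR's test became 21 (Nrf1 cKO against WT), 7 (dKO against Nrf1 cKO), 3 (Dnmt3C KO against WT) and 1 (dKO against Dnmt3C KO) by the DESeq2 Wald test over all libraries, and 25, 3, 17, 17 and 1 (dKO against WT) with the 2 genotypes alone. Among 2346 values of named genes over 21 alternatives, 15 changed sign. With equal germ cell markers, which moved the median of all genes from -0.03 to -0.44, Nrf1 was at -0.11, Dnmt3c at -0.27, Gabpb1 at -0.09 and Mro at -0.27, each still above that median. Without WT replicate 2, mt-Nd5 was at -0.06, Oasl2 at -0.007, Slc4a1 at -0.1, Hba-x at -2.28 and Hbb-y at -3.49. Without WT replicate 1, Zbtb16 was at -0.23, and without Nrf1 cKO replicate 3 Cldn11 was at 0.05. Krt7 was at -0.0072, -0.15, -0.0039 and -0.21 without Dnmt3C KO replicate 1, Nrf1 cKO replicate 2, Nrf1 cKO replicate 3 and dKO replicate 2. At the other end, leaving out 1 library gave at most 1.23 for Zbtb16, 0.87 for mt-Nd5, 4.85 for Slc4a1, 7.38 for Hba-x, 7.67 for Hbb-y, 1.82 for Krt7 and 1 for Oasl2, and -1.81 for Cldn11.

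Same-numbered libraries of different genotypes did not deviate from their genotype's mean together: their correlations were between -0.23 and 0.22 over 15 pairs, 3 of them over 0.1. The numbers are those of the sample titles; the columns of the deposited tables number the third library of Dnmt3C KO and of dKO otherwise, and the lowest and the highest correlation come from pairs of numbers 1 and 2. With the replicate number as a block, 0 genes were called, 559 were above 0 and 324 below 0 at an unadjusted p under 0.05.

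The limits are the 2 WT libraries, which were unlike each other, the whole-organ RNA and the length and GC differences between libraries. WT 2 had the most outlying genes. WT 1 had the lowest deviation of any library in the shortest quartile (-0.15) and the highest in the longest (0.14).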

Other observations

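The smallest p of any gene row belonged to Amd-ps4, a processed pseudogene of the polyamine enzyme gene Amd1. It was at 0.243 and 1.26 CPM in WT, at 0.0287, 0.0254 and 0.0953 CPM in Dnmt3C KO, at 0.0304, 0.0544 and 0 CPM in Nrf1 cKO, and at 1.07, 0.742 and 0.0917 CPM in dKO. Its interaction was 8.07 ± 1.52 (SE), with unadjusted p = 0.000141 and adjusted p = 0.895 in edgeR's quasi-likelihood test; a fitted value of this size rests on libraries at or near 0 counts, and reads of a pseudogene can be shared with its parent gene, so both are uncertain.

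Cd74, the invariant chain of MHC class II, was at 37.2 CPM in WT 2 and between 3.36 and 8.71 CPM in the other libraries, which is the pattern of H2-Eb1; it was chosen after its values were seen. Csmd2, a membrane protein gene of the nervous system, was low in Dnmt3C KO, at 0.115, 0.0763 and 0.0318 CPM, against 0.513 and 0.481 CPM in WT, 0.364, 0.299 and 0.194 CPM in Nrf1 cKO and 0.338, 0.433 and 0.489 CPM in dKO, and was outside the named genes because no genotype reached a mean of 1 CPM. Its interaction was 3.20 ± 0.80 (SE), with an adjusted p of 0.895 in edgeR's test.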
